A study of Homo sapiens with 6 samples.

Results

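The genes described here are 6 aldo-keto reductases of the AKR1 family, AKR1C1, AKR1C2, AKR1C3, AKR1B10, AKR1B1 and AKR1A1, and the aldehyde dehydrogenase ALDH3A1. They are 7 of the 60676 genes listed in the deposited tables, and 6 of the 11 protein-coding AKR1 genes of the annotation. The set was chosen by gene symbol, and it was chosen with the differences between these libraries in view, so the members' levels and fold changes are given as a description, without tests. The human colorectal adenocarcinoma line HT29 was left untreated or was depleted of histidine or of tryptophan, and RNA was sequenced at 48 h from 2 samples per condition (6 libraries). The cells of all groups are the same line, with no allele or drug added. The sources used here do not state whether the samples of a group were separate cultures, so the spread between samples may be technical. The SDs below measure that spread for each gene. The standard errors of fold changes lean mostly on the spread pooled over genes, so they are not a gene's own spread. Histidine was removed from an RPMI-based medium and tryptophan from a DMEM F-12-based medium, while for the untreated cells of the RNA sequencing the methods name a control medium without its base. Full RPMI is named as the control for the proteomics of the study, which does not state it for these libraries. Both depleted media held dialysed fetal bovine serum, while the serum of the control medium is not named for these libraries. Against untreated cells, depletion therefore cannot be told apart from base medium or serum. Between the depletions, it cannot be told apart from base medium.

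Aldo-keto reductases use NADPH to reduce aldehydes and ketones to alcohols, and aldehyde dehydrogenases oxidise aldehydes to acids. AKR1C1 inactivates progesterone, AKR1C2 inactivates dihydrotestosterone and binds bile acids, and AKR1C3 makes testosterone and prostaglandin F. AKR1B10 reduces retinal and lipid aldehydes and is known from intestinal epithelium, AKR1B1 is the aldose reductase that turns glucose into sorbitol, and AKR1A1 is a widely expressed aldehyde reductase. ALDH3A1 oxidises fatty and aromatic aldehydes and is best known from cornea and stomach. Several of these genes are known targets of NRF2 (NFE2L2), the transcription factor that KEAP1 holds in check and that binds antioxidant response elements, and ALDH3A1 is also a known target of the aryl hydrocarbon receptor.

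The libraries held between 46390819 and 64388876 reads on genes. Of 11 colon epithelium markers, 10 had more than 3 reads in every library, the exception being GPA33, and their summed normalized counts were between 448970 and 635928. KRT8 made the largest contribution to the sum in every library, and without it the histidine-depleted libraries (262536 and 276196) were close to the untreated ones (262345 and 275434), while the tryptophan-depleted libraries (384828 and 381364) were above both. The markers did not move together. After histidine depletion 5 of the 11 lay above both untreated libraries, among them KRT19 (19835.9 and 21457 in untreated, 57634.9 and 62355.5 in histidine-depleted cells) and KRT20 (10264.4 and 10758.9, 34599.3 and 35062.5). The other 6 lay below, among them LGALS4 (54147.5 and 56464.8 in untreated, 17513.3 and 19659.8 in histidine-depleted cells), CDX2 (468.9 and 456.5, 181.6 and 172) and KRT18 (118089.3 and 123659.6, 81036.3 and 86411.9). After tryptophan depletion 8 lay above and 3 below. Of all genes tested, 88.1% and 84.3% had groups that did not overlap in these comparisons. Some colon markers were thus lower and others higher in the histidine-depleted libraries, where 5 members were lower, most were higher in the tryptophan-depleted libraries where 6 of the 7 members were higher, and their part in the results was not tested. Of 11 markers of other cell types, 7 had at most 3 reads in every library, and their summed normalized counts were between 86 and 138. For each member, normalized read counts are given below on a scale common to all 6 libraries, while fold changes against untreated cells were fitted within the separately normalized table of each depletion, where the untreated values differ by 0.676% and 1.05% between tables.

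AKR1C1 (ENSG00000187134, chr10:4963253-4983283, plus strand), AKR1C2 (ENSG00000151632, chr10:4987775-5018031, minus strand) and AKR1C3 (ENSG00000196139, chr10:5035354-5107686, plus strand) are neighbours on chromosome 10 (coordinates from GRCh38). AKR1B1 (ENSG00000085662, chr7:134442356-134459284, minus strand) and AKR1B10 (ENSG00000198074, chr7:134527567-134541412, plus strand) are neighbours on chromosome 7. AKR1A1 (ENSG00000117448) lies at chr1:45550543-45570049 on the plus strand, and ALDH3A1 (ENSG00000108602) at chr17:19737984-19748943 on the minus strand. The coding sequences of AKR1C1 and AKR1C2 were identical at 98% of aligned bases, those of AKR1C1 and AKR1C3 at 91.4%, those of AKR1C2 and AKR1C3 at 91%, and those of AKR1B10 and AKR1B1 at 75.8%. The other AKR1 pairs shared between 51.4% and 58.3% of bases, and ALDH3A1 shared between 40.7% and 43.7% with the AKR1 members.

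Because AKR1C2 and AKR1C1 had the largest ranges of all members, the sequences upstream of the AKR1C genes are shown. They are the 250 bases before the start site, on the strand of the gene, from RefSeq promoter windows for GRCh38.p14. In AKR1C1 (chr10:4963165-4963414, plus strand) and AKR1C2 (chr10:5003858-5004107, minus strand), the capitals mark the longest run that both windows share. In AKR1C3 (chr10:5094164-5094413, plus strand, the window that ends at the start of the canonical transcript), the capitals mark its longest run shared with AKR1C1.
AKR1C1: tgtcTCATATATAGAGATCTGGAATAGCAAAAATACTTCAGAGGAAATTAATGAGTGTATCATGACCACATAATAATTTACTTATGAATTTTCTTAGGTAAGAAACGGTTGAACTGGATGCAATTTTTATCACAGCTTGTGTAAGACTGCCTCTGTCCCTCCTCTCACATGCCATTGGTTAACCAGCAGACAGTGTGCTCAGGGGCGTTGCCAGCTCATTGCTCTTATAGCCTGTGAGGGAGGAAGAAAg
AKR1C2: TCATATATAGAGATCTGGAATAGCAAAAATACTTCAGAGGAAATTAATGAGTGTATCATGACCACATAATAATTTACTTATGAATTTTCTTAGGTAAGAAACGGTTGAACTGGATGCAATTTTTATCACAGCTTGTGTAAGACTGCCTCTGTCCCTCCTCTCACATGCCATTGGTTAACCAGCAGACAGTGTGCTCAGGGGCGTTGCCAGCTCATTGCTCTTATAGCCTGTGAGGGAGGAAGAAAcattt
AKR1C3: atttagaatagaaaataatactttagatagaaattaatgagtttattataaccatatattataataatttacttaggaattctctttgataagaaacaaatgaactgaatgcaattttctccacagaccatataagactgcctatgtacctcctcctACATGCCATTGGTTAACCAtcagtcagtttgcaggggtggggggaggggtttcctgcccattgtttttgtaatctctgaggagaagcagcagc
The run shared by AKR1C1 and AKR1C2 was 245 of 250 bases long, and the windows were identical at 96.5% of aligned positions. The longest run that AKR1C3 shared with AKR1C1 was 19 bases, and these windows were identical at 69.2% of aligned positions. In alignments of AKR1C1 with the windows of AKR1A1 and AKR1B1, identity was between 35.8% and 40.8%.

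RefSeq windows were found for 5 of the 7 members, AKR1B10 and ALDH3A1 not among them, and gave 7 windows, since AKR1C3 and AKR1B1 have several. Each was searched on both strands, from 250 bases before to 50 after the start. The antioxidant response element core TGACNNNGC, bound by NRF2, was in 0 of the 7 windows and in 13.3% of all 35116 windows. The AP-1 motif TGANTCA, which can overlap it, was in 0 of the 7 and in 7.71% of all. The core of a C/EBP-ATF composite site, TTGCATCA, was in 0 of the 7 and in 0.866% of all. The aryl hydrocarbon receptor core GCGTG was in both overlapping windows of AKR1B1, at the same genomic position and on the strand opposite to the gene, and in 36.5% of all windows. These letters are absent from the AKR1C and AKR1A1 windows, which says nothing of sites farther away.

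The near identity of the AKR1C genes also bears on read assignment. Of all 150-base stretches of the AKR1C2 canonical transcript, 17.2% occurred unchanged in another gene's transcript (AKR1C1 or AKR1C3), against 7.91% of those of AKR1C1 and 2.12% of those of AKR1C3. At 75 bases, the shares were 36% for AKR1C2, 16.8% for AKR1C1, 12.3% for AKR1C3 and 7.31% for AKR1B10, and 0% for AKR1B1, AKR1A1 and ALDH3A1. How reads that fit several genes were treated is not given in the sources used here, so the split of reads between AKR1C1 and AKR1C2 is uncertain.

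In the tryptophan-depleted cells, 6 of the 7 members were higher than in untreated cells and AKR1A1 was lower. In the histidine-depleted cells, AKR1C1, AKR1C2, AKR1C3, AKR1B10 and ALDH3A1 were lower, AKR1A1 was nearly level, and AKR1B1 had too few reads to be fitted. AKR1C1, AKR1C2, AKR1C3, AKR1B10 and ALDH3A1 therefore stood on opposite sides of the untreated level in the 2 depletions. In bulk RNA, fewer cells of a type and less RNA per cell cannot be told apart. For the members, the groups did not overlap in any comparison tested, as was the case for 88.1% of all genes tested after histidine depletion, 84.3% after tryptophan depletion and 88.8% between the depletions.

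AKR1C1 had normalized counts of 1454.8 and 1508.8 in the untreated libraries, 757.1 and 900.5 in the histidine-depleted libraries, and 33947 and 34553 in the tryptophan-depleted libraries. Both tryptophan-depleted libraries were far above all others, and both histidine-depleted ones were the lowest. The log2 fold change was 4.52 ± 0.047 (standard error) after tryptophan depletion, a 23-fold higher level, and -0.83 ± 0.073 after histidine depletion, a 1.78-fold lower level. Among fold changes after tryptophan depletion, AKR1C1 ranked 19th from the highest of 17960 genes.

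AKR1C2 had 161.8 and 203.9 in untreated, 72.3 and 100.7 in histidine-depleted and 5344 and 5461 in tryptophan-depleted cells. The order of the groups was that of AKR1C1, at a lower level throughout, with wider spread in the groups with few reads (80 and 99 reads in the histidine-depleted libraries). Its log2 fold change after tryptophan depletion was 4.88 ± 0.067, a 29.4-fold higher level that ranked 11th of 17960. After histidine depletion it was -1.07 ± 0.17, a 2.1-fold lower level.

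AKR1C3 had 3631 and 3878 in untreated, 2134.1 and 2439.9 in histidine-depleted and 17733 and 18334 in tryptophan-depleted cells. The groups again stood apart in the same order, with smaller distances. The log2 fold changes were 2.26 ± 0.047 after tryptophan depletion and -0.71 ± 0.06 after histidine depletion, that is, 4.78-fold higher and 1.63-fold lower.

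Within a library, the per-length ratio of AKR1C1 to AKR1C3 (canonical transcripts) was 0.0716 ± 0.0015 (SD, n = 2) in untreated cells, 0.0656 ± 0.0018 after histidine depletion and 0.344 ± 0.0038 after tryptophan depletion. The ratio of AKR1C1 to AKR1C2 was 4.03 ± 0.55 in untreated cells, 4.77 ± 0.53 after histidine depletion and 3.12 ± 0.0088 after tryptophan depletion. The first ratio was thus higher after tryptophan depletion by more than the spread between samples, whereas the AKR1C1 to AKR1C2 ratio lay below the lower untreated library (3.64) by less than the untreated SD.

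AKR1B10 had 3875.8 and 3768.6 in untreated, 263.8 and 291 in histidine-depleted and 11351 and 10938 in tryptophan-depleted cells. It differed from the AKR1C genes in the size of the 2 changes, since the histidine-depleted libraries lay farther from the untreated ones than the tryptophan-depleted libraries did on the log scale. The log2 fold change was -3.77 ± 0.068 after histidine depletion, a 13.7-fold lower level that ranked 59th from the lowest of 18288 genes, and 1.54 ± 0.047 after tryptophan depletion, a 2.9-fold higher level.

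AKR1B1 was barely detected, with 3 and 2 reads in untreated, 7 and 15 in histidine-depleted and 27 and 36 in tryptophan-depleted cells. The aldose reductase gene thus stayed at or under 36 reads per library, while its neighbour AKR1B10 had at least 286. From summed reads, its ratio to untreated cells was 4.04 after histidine depletion (95% exact interval 1.49 to 13.7) and 11.9 after tryptophan depletion (4.85 to 38). The intervals cover counting error only. The fitted log2 difference between histidine and tryptophan depletion, given further on, was -0.97 without histidine-depleted replicate 1 and -2.12 without replicate 2. The 8 processed pseudogenes of AKR1B1 had 0 reads in every library.

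AKR1A1 had 6593 and 6764.4 in untreated, 6448.2 and 6574 in histidine-depleted and 4352.7 and 4098.5 in tryptophan-depleted cells. It was the member with the smallest range, its highest group mean being 1.58-fold its lowest, and the only one that was lower after tryptophan depletion. The log2 fold changes were -0.03 ± 0.049 after histidine depletion and -0.67 ± 0.047 after tryptophan depletion. With quantile normalization the former was -0.24, so whether AKR1A1 was level after histidine depletion depends on the scaling.

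ALDH3A1 had 896.3 and 866.3 in untreated, 235.8 and 241.1 in histidine-depleted and 5771.9 and 5464.7 in tryptophan-depleted cells. The groups were ordered as for the AKR1C genes and AKR1B10, although the enzyme belongs to another family and oxidises aldehydes. Its log2 fold change was 2.66 ± 0.052 after tryptophan depletion, a 6.33-fold higher level, and -1.87 ± 0.085 after histidine depletion, a 3.66-fold lower level.

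Between the depletions, on the joint scale, AKR1C2 was 62.6-fold lower in histidine-depleted than in tryptophan-depleted cells (log2 fold change -5.97 ± 0.12). AKR1C1 was 41.4-fold lower (-5.37 ± 0.061), AKR1B10 40.1-fold lower (-5.32 ± 0.051) and ALDH3A1 23.5-fold lower (-4.55 ± 0.049). These 4 genes ranked 10th, 19th, 20th and 32nd from the lowest of 18276 genes. AKR1C3 was 7.9-fold lower (-2.98 ± 0.051), AKR1B1 2.92-fold lower (-1.54 ± 0.39, a call lost in limma without the trend), and AKR1A1 1.54-fold higher (0.62 ± 0.035).

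**Figure D1:**
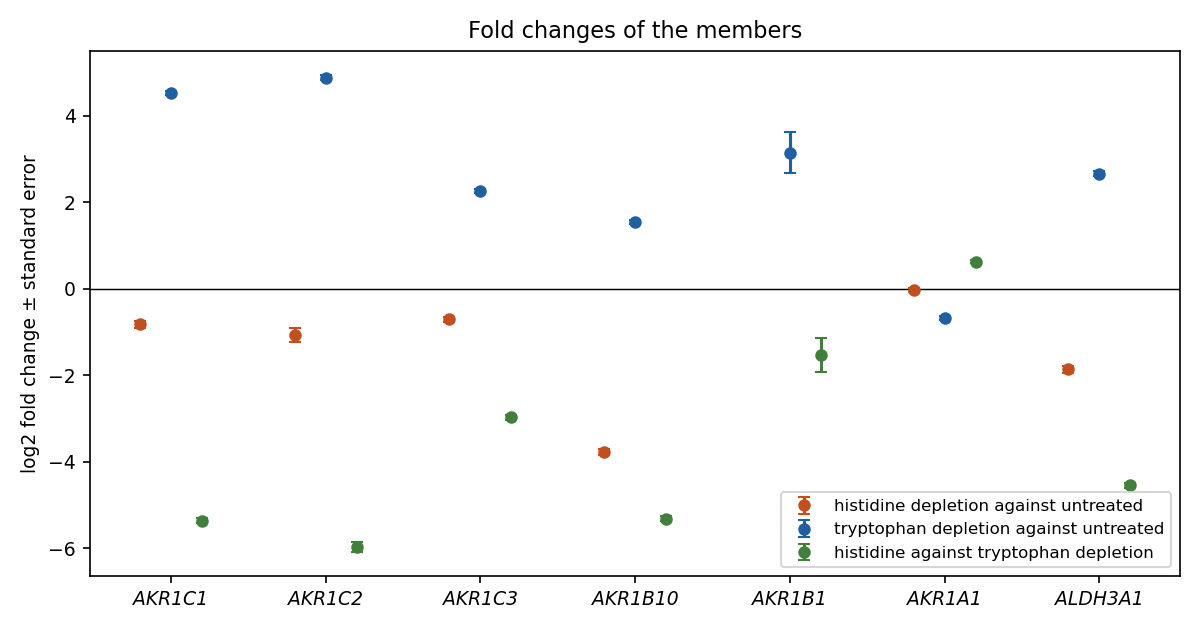
Log2 fold change ± standard error of each member in the 3 comparisons, from limma on log2(normalized count + 1). AKR1C1 stands at 4.52 after tryptophan depletion and -0.83 after histidine depletion, AKR1B10 at 1.54 and -3.77, and AKR1A1 within 0.67 of zero in both. AKR1B1 has no point for histidine depletion because it had too few reads.

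By the rule used for all genes (limma, adjusted p under 0.05, mean of at least 10 normalized counts), 5 of the 6 members tested after histidine depletion were called lower and 0 higher. Of all 18288 genes tested, 38.2% were called lower and 39.1% higher. The count of 0 in limma was also 0 at an unadjusted p under 0.05, and 0 in edgeR and DESeq2. After tryptophan depletion, 6 of 7 members were called higher and 1 lower, against 36.1% higher and 34.8% lower of 17960 genes. Between histidine and tryptophan depletion, 1 of 7 was called higher and 6 lower, against 39.9% and 38.4% of 18276 genes. Since the members were selected on these contrasts, nothing is read from their share. Their median log2 fold change was -0.95 after histidine depletion, 2.66 after tryptophan depletion and -4.55 between the depletions, beside medians of 0.01, 0.013 and 0.018 over all genes tested. Both comparisons with untreated cells use the same untreated libraries.

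To compare levels between genes, normalized counts were divided by the length of the canonical transcript. In untreated cells AKR1A1 was highest with 4747 ± 86 per kb (SD, n = 2), followed by AKR1C3 with 3166 ± 147 and AKR1B10 with 2361 ± 46.8. ALDH3A1 followed with 538 ± 13, AKR1C1 with 226 ± 5.8, AKR1C2 with 56.9 ± 9.3 and AKR1B1 with 1.94 ± 0.67. All neighbours in this order were farther apart than their spread.

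In histidine-depleted cells the order was AKR1A1 (4628 ± 63.2 per kb), AKR1C3 (1928 ± 182), AKR1B10 (171 ± 12), ALDH3A1 (146 ± 2.3), AKR1C1 (127 ± 15), AKR1C2 (26.9 ± 6.3) and AKR1B1 (7.93 ± 4.6). ALDH3A1 and AKR1C1 were separated by little more than their summed SDs. In tryptophan-depleted cells AKR1C3 was highest with 15206 ± 359 per kb, followed by AKR1B10 with 6884 ± 180 and AKR1C1 with 5235 ± 65.4. ALDH3A1 (3428 ± 132), AKR1A1 (3003 ± 128), AKR1C2 (1680 ± 25.7) and AKR1B1 (22.7 ± 2.2) followed. AKR1A1 thus went from the first place to the fifth.

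This order rests on the length used. The canonical AKR1C1 transcript is 6543 bases long and that of AKR1C2 3215, against 1186 for AKR1C3, while all 3 coding sequences are 969 bases long. Reads on all exons were divided by either length, so the coding length raises genes with long untranslated parts the most. Divided by coding length, AKR1C1 was the highest member in tryptophan-depleted cells, with 35346 ± 442 per kb. AKR1C3 had 18611 ± 439 and AKR1B10 had 11756 ± 307. In untreated cells AKR1A1 was highest by either length, with 6850 ± 124 per kb of coding sequence.

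Summed per kb of canonical transcript, the 6 AKR1 members reached 10559 ± 201 in untreated cells, 6889 ± 284 after histidine depletion and 32030 ± 144 after tryptophan depletion. AKR1A1 made up 45% ± 0.04 of the untreated sum, 67.2% ± 1.9 after histidine depletion and 9.38% ± 0.44 after tryptophan depletion. AKR1C3 made up 30% ± 0.82, 28% ± 1.5 and 47.5% ± 0.91. AKR1B10 made up 22.4% ± 0.87, 2.49% ± 0.07 and 21.5% ± 0.66. AKR1C1 went from 2.15% ± 0.014 in untreated cells to 16.3% ± 0.13 after tryptophan depletion. These shares change with the length used, as the order does.

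The amino acid that was withheld is coded in all 7 members. Histidine codons (CAC and CAT) made up between 2.21% (ALDH3A1) and 3.1% (AKR1C2 and AKR1C3) of the codons, beside a median of 2.43% over 19541 protein-coding canonical transcripts. Tryptophan codons (TGG) made up between 0.883% (ALDH3A1) and 2.15% (AKR1A1), beside a median of 1.12%. The 3 AKR1C genes each have 3 tryptophan codons, AKR1B10 and AKR1B1 have 6, AKR1A1 has 7 and ALDH3A1 has 4.

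The genes most like the members over all samples were found by the root mean square difference of centred log2 values over the 6 libraries, in a set of 11014 protein-coding genes (mean over the libraries 100 or more), from which the members were then left out. AKR1C2, AKR1C1 and AKR1B10 were used, since their group means had the largest ranges. For both AKR1C1 and AKR1C2 the nearest genes outside the members were LAMP3, a lysosomal membrane protein of dendritic and lung cells, CLGN, a chaperone of the endoplasmic reticulum, and ZNF467, a zinc finger protein. LAMP3 differed by 0.149 from AKR1C1 and by 0.164 from AKR1C2, which is less than the 0.266 between AKR1C1 and AKR1C2 themselves, while ZNF467 was farther from both than they were from each other. LAMP3 had normalized counts of 99.5 and 125.3 in untreated, 57.8 and 66.1 in histidine-depleted and 3022 and 3215.8 in tryptophan-depleted cells. CLGN had 210.9 and 198.9, 90.3 and 87.5, and 4714.4 and 4778.9. Both thus had the group order and, on the log scale, nearly the distances of AKR1C1.

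For AKR1B10 the nearest genes outside the members were HKDC1, a hexokinase, at a difference of 0.281, then GLI1, a transcription factor of hedgehog signalling, at 0.382, and BEST1, a chloride channel, at 0.501. HKDC1 had 3665.9 and 4142.6 in untreated, 221.4 and 272.7 in histidine-depleted and 7178.3 and 7377.5 in tryptophan-depleted cells. AKR1C1 differed from AKR1B10 by 1.4 and ALDH3A1 by 0.781, so these 3 genes were nearer to it than any of the other members compared.

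Of 11 other aldo-keto reductases, 8 had enough reads to be tested. After histidine depletion 1 of the 8 rose and 5 fell (median log2 fold change -0.47), and after tryptophan depletion 4 rose and 3 fell (median 0.40), the rises numbering 2 in DESeq2 and 2 without tryptophan-depleted replicate 2. Between the depletions 1 was higher and 5 were lower after histidine depletion (median -0.40). AKR1C4, the liver form of the AKR1C group, had between 12 and 29 reads per library, AKR1B15 had at most 2, and AKR1C8 and AKR1D1 had at most 2 and 1. AKR7A2 and AKR7A3, which reduce succinic semialdehyde and aflatoxin dialdehyde, fell in both depletions. For AKR7A2, the log2 fold change was -1.53 ± 0.058 after histidine depletion (limma adjusted p = 2.16e-17) and -1.28 ± 0.051 after tryptophan depletion (limma adjusted p = 6.02e-52). KCNAB3, a subunit of potassium channels with an aldo-keto reductase fold, rose in both, by 1.19 ± 0.21 (limma adjusted p = 1.43e-05) and 1.46 ± 0.2 (limma adjusted p = 3.87e-11).

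Among 18 other aldehyde dehydrogenases, 5 rose and 12 fell after histidine depletion (median -0.83). The rises after histidine depletion numbered 3 without the trend and 3 with quantile normalization. After tryptophan depletion 6 rose and 9 fell (median -0.09). Between the depletions 5 were higher and 11 lower after histidine depletion (median -0.76). ALDH3A2, the fatty aldehyde dehydrogenase next of kin to ALDH3A1, had 5308.7 and 5499.3 normalized counts in untreated, 2846.9 and 2954.8 in histidine-depleted and 9819.4 and 10234 in tryptophan-depleted cells. It was thus ordered as ALDH3A1 was, with log2 fold changes of -0.89 ± 0.051 and 0.88 ± 0.047, and -1.79 ± 0.033 between the depletions. ALDH1A1, which makes retinoic acid and had the most reads of these genes in untreated and tryptophan-depleted cells, fell in both, by 2.77 on the log2 scale after histidine depletion and by 1.11 after tryptophan depletion. ALDH7A1, of lysine breakdown, fell by 1.84 and 2.36. ALDH1A3, another maker of retinoic acid, rose by 0.95 and 1.66, and ALDH3B1 rose by 0.20 and 1.55. For ALDH3B1 the former was 0.04 with quantile normalization (limma adjusted p = 0.406) and 0.13 without histidine-depleted replicate 2. Its call was also lost without the trend (limma adjusted p = 0.0814). ALDH8A1, an enzyme of tryptophan breakdown, rose by 3.12 ± 0.25 after histidine depletion (limma adjusted p = 5.27e-11), while after tryptophan depletion its log2 fold change of 0.29 did not pass the test (limma adjusted p = 0.511).

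Of the NRF2 targets other than the members, 23 of 26 were tested. After tryptophan depletion 16 rose and 4 fell (median 0.56), and after histidine depletion 6 rose and 14 fell (median -0.26). Between the depletions 3 were higher and 20 lower after histidine depletion (median -1.05). OSGIN1, an inducible growth inhibitor, rose by 1.81 after tryptophan and 1.67 after histidine depletion, so it went up in both. GPX2, the gastrointestinal glutathione peroxidase, and PIR, an iron-binding protein, fell after histidine depletion (log2 fold change -2.47 and -1.99) and rose after tryptophan depletion (0.47 and 0.62). NQO1, the quinone reductase, fell by 1.68 ± 0.053 after histidine depletion (limma adjusted p = 7.04e-19). After tryptophan depletion it was called higher at 0.14 ± 0.052 (limma adjusted p = 0.0131), but was at -0.04 with quantile normalization, and the call was lost without either tryptophan-depleted library (limma adjusted p = 0.19 and 0.372). TRIM16L rose by 1.74 after tryptophan depletion, but it is annotated as a transcribed pseudogene whose exons all overlap those of another gene on the same strand (100%), so its reads cannot be assigned with certainty. HMOX1, heme oxygenase, fell by 0.65 after tryptophan depletion, and SLC7A11, the cystine transporter, fell in both, by 1.41 after histidine and 0.79 after tryptophan depletion.

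**Figure D2:**
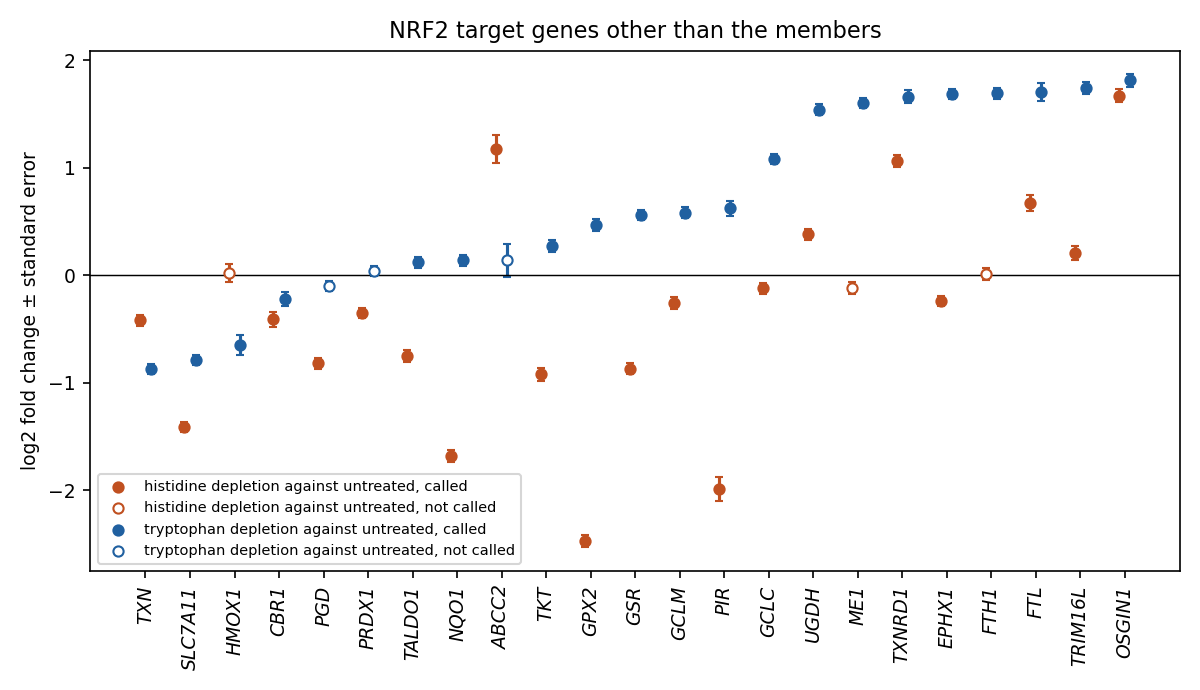
Log2 fold change ± standard error of the 23 tested NRF2 targets other than the members, after histidine and after tryptophan depletion, ordered by the latter. Filled points passed limma's test and open points did not. After tryptophan depletion 16 lie above zero and passed, after histidine depletion 6.

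Of 10 NRF2 regulators, 6 rose and 3 fell after histidine depletion (median 0.88), 8 rose and 1 fell after tryptophan depletion (median 0.68), and 5 were higher and 3 lower between the depletions (median 0.08). NFE2L2 itself had 8099.2 and 8240.5 normalized counts in untreated, 5840.2 and 6032.7 in histidine-depleted and 8945.4 and 9014.7 in tryptophan-depleted cells. Its log2 fold changes were -0.45 ± 0.049 (limma adjusted p = 1.02e-08) and 0.13 ± 0.046 (limma adjusted p = 0.00982), of which the latter was not called without tryptophan-depleted replicate 1 (limma adjusted p = 0.134) or 2 (limma adjusted p = 0.22). KEAP1 fell by 0.46 after histidine depletion and had 0.02 after tryptophan depletion, which did not pass the test (limma adjusted p = 0.782). SQSTM1, the autophagy receptor that binds KEAP1, rose by 3.66 after histidine and 1.57 after tryptophan depletion. MAFK, a small partner of NRF2, rose by 1.81 and 0.43, and NFE2L1, a relative of NRF2, rose by 1.66 after tryptophan depletion. RNA levels do not measure the NRF2 protein.

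Of the aryl hydrocarbon receptor and its targets, 8 of 10 were tested, of which 4 rose and 3 fell after histidine depletion (median 0.26) and 6 rose and 1 fell after tryptophan depletion (median 0.71). Between the depletions 2 were higher and 3 lower (median -0.17), the higher ones numbering 1 without the trend, with quantile normalization and in DESeq2. AHR rose by 0.60 after histidine and 0.59 after tryptophan depletion. CYP1A1, the classical target, had 6.6 and 4 normalized counts in untreated, 78.6 and 64.1 in histidine-depleted and 83.2 and 64.1 in tryptophan-depleted cells, with log2 fold changes of 3.56 ± 0.34 and 3.58 ± 0.35. UGT1A6, which shares exons with other UGT1A genes, fell by 3.62 after histidine depletion, and NQO1 fell by 1.68. CYP1B1 fell by 0.37 after histidine depletion and rose by 2.94 after tryptophan depletion, the directions seen in ALDH3A1. The former call was lost without untreated replicate 2 (limma adjusted p = 0.0581) and with quantile normalization (-0.18, limma adjusted p = 0.143).

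Of the carbonyl and retinal reductases of the short-chain family, which share substrates with AKR1B10, 15 were tested. After histidine depletion 6 rose and 8 fell (median -0.33), beside 39.1% and 38.2% of all genes tested. After tryptophan depletion 6 rose and 9 fell (median -0.22), beside 36.1% and 34.8% of all genes tested. Between the depletions 3 were higher and 10 lower of 14 (median -0.62). DHRS9 and RDH10, which oxidise retinol, rose by 2.18 and 1.92 after tryptophan depletion. DHRS4 fell by 2.31 and 0.63, and DHRS11 by 1.44 and 0.60, after histidine and tryptophan depletion.

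Of 22 steroid-converting enzymes, 15 were tested after histidine depletion, of which 6 rose and 7 fell (median -0.26). After tryptophan depletion 13 were tested, of which 5 rose and 5 fell (median -0.02), and between the depletions 5 were higher and 8 lower of 14 (median -0.28). HSD17B8 and HSD17B2, which oxidise oestradiol, fell by 2.23 and 1.83 after histidine depletion. HSD17B1, which makes oestradiol, rose by 1.05 after histidine and 1.31 after tryptophan depletion. Other genes' exons on the opposite strand overlap 80.9% of its exon length. How strand was treated in counting is not given, so its reads cannot be assigned with certainty. HSD17B11 fell by 1.14 after histidine and 1.64 after tryptophan depletion.

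In the polyol and fructose pathway, which AKR1B1 opens, 1 of 5 tested genes rose and 3 fell after histidine depletion (median -1.47). Without the filter on low values, 2 rose after histidine depletion. After tryptophan depletion 0 of 4 rose and 3 fell (median -1.26). The count of 0 in limma was also 0 at an unadjusted p under 0.05, in edgeR and in DESeq2. Those that fell include SORD, the sorbitol dehydrogenase, and KHK, the fructokinase. Between the depletions 2 of 5 were higher and 1 lower (median 0.29). SORD had 9501.5 and 10010 normalized counts in untreated, 3433.3 and 3541.9 in histidine-depleted and 3087.1 and 3115.1 in tryptophan-depleted cells. Its log2 fold changes were -1.47 ± 0.051 and -1.66 ± 0.047. KHK fell by 1.66 and 1.96.

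Of 14 genes of NADPH supply, the cofactor of the reductases, 2 rose and 10 fell after histidine depletion (median -0.87), while 7 rose and 4 fell after tryptophan depletion (median 0.05). Between the depletions 2 were higher and 11 lower (median -1.03). IDH1, the cytosolic isocitrate dehydrogenase, fell by 1.24 after histidine depletion and rose by 1.37 after tryptophan depletion. ME1, the malic enzyme, rose by 1.60 after tryptophan depletion. IDH2, the mitochondrial form, fell by 3.16 and 1.54. ME3 rose by 1.60 after histidine depletion, the larger of the 2 rises there. RPE, ribulose-phosphate epimerase, rose by 0.17 after histidine depletion, a call lost without histidine-depleted replicate 2 (limma adjusted p = 0.159), and fell by 0.31 after tryptophan depletion.

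Of 25 genes of conjugation and export, 19 were tested after histidine depletion, of which 2 rose and 16 fell (median -0.93). After tryptophan depletion 4 rose and 10 fell of 20 (median -0.34), and between the depletions 3 were higher and 15 lower of 18 (median -1.03). UGT1A10, an intestinal glucuronosyltransferase, fell by 3.95 after histidine depletion and 0.53 after tryptophan depletion. UGDH, which makes the glucuronic acid donor, rose by 0.38 and 1.54. The UGT1A genes share exons, so their reads cannot be fully told apart.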

How the data were processed

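RNA-seq of HT29 cells was used, with 2 libraries each of untreated, histidine-depleted and tryptophan-depleted cells after 48 h. The libraries were made from poly(A) RNA with a stranded kit and adapters that carry molecular identifiers. The authors aligned reads with STAR 2.7.10a to GRCh38, counted them on genes with HTSeq 2.0.5 and gencode 38, and deposited counts divided by DESeq2 size factors (normalized signal, at least 0), as separate tables for the depletions that share the untreated libraries. The methods limit the counting to exons of protein-coding genes, but the tables also hold other gene types, some with reads, such as pseudogenes. How identifiers, strand and reads mapping to several places were treated is not given in the sources used here.

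Every value was a whole multiple of the step of its library (100% within 0.01), which gave back the reads. A joint scale was made from them by median-of-ratios over the 6 libraries. Identifiers were matched to gencode 44 (60357 of 60676). Differences were tested with limma 3.58.1 (R 4.3.3, trend on, two-sided, no block) on log2(normalized count + 1). Genes entered at a mean of 10 or more, p-values were adjusted over all of them after Benjamini and Hochberg, and calls were made under 0.05. On this scale the change of low genes is understated. With 2 residual degrees of freedom the tests lean on the spread pooled over genes (prior degrees of freedom 21.2, 135 and 9.06 for histidine, tryptophan and the direct comparison). The code was tested on simulated data.

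The members and the lists (other aldo-keto reductases, other aldehyde dehydrogenases, NRF2 targets, NRF2 regulators, carbonyl reductases, steroid-converting enzymes, polyol pathway, NADPH supply, aryl hydrocarbon receptor targets, conjugation and export; 147 genes in 10 lists) were chosen with earlier results of these data known. Named are the members, from each list the 2 largest rises and falls past the threshold per depletion with a mean of at least 100 in the higher group, 12 genes fixed by name, and the 3 genes outside the members nearest to each of the 3 members with the largest range. Not every gene the rule selects is printed, and 1 gene of the lists, also among those fixed by name, is not reported here. AKR1C8, AKR1D1, GPA33, KRT8, KRT19, KRT20, LGALS4, CDX2 and KRT18 are named beside counts, chosen after their values were seen. Lists are described by counts and medians, with no test of the list. Canonical transcripts of gencode 44 gave lengths, codons and coding sequence identity (Biopython 1.88), and RefSeq windows the promoters. Protein sequences were not used here. The tests were repeated with other pseudocounts (0.5, 8), other filters (none, 50), no trend, quantile normalization, edgeR 4.0.16 (TMM) and DESeq2 1.42.0 on the reads, a replicate block, all 6 libraries in a single fit, an added fold limit and single libraries left out. Coding length was added after the data were seen. Mass spectrometry data were not analysed here.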

Additional observations from a re-analysis of the deposited data

Results flagged for a closer look

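Among the 74 members and list genes that the naming rule selects, 16 were called by limma in opposite directions against untreated cells in the 2 depletions. The rule picks the largest rises and falls of each list. The share of all genes called in opposite directions was not counted, so nothing is read from this number. Genes named for their likeness to a member were not looked at in this way. Since the 16 are picked out for opposite calls, a test between the depletions would restate that choice, and the log2 differences of histidine from tryptophan depletion are given as values only. For the members the difference was -5.37 for AKR1C1, -5.97 for AKR1C2, -2.98 for AKR1C3, -5.32 for AKR1B10 and -4.55 for ALDH3A1, each with lower values in both histidine-depleted and higher values in both tryptophan-depleted libraries.

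Of the 11 other genes, 8 were lower after histidine and higher after tryptophan depletion, as these members were. The direct log2 difference was -2.89 for ALDH1L1 (its rise after tryptophan depletion was not called by DESeq2, adjusted p = 0.0757), -1.79 for ALDH3A2 and -3.32 for CYP1B1, whose fall after histidine depletion was not called with quantile normalization or without untreated replicate 2. It was -2.95 for GPX2, -2.63 for PIR, -2.63 for IDH1 and -1.83 for NQO1, whose rise after tryptophan depletion was not called without the trend, with quantile normalization or without either tryptophan-depleted library. NFE2L2 differed by -0.60, and its rise after tryptophan depletion was not called without the trend, with quantile normalization or without either tryptophan-depleted library. The other 3 had the opposite order, DCXR with 1.02, whose fall after tryptophan depletion was not called without tryptophan-depleted replicate 1 (log2 fold change -0.14, limma adjusted p = 0.147) or without the trend (limma adjusted p = 0.0841), HSD17B7 with 0.96 and RPE with 0.46, whose rise after histidine depletion was not called without the trend, with quantile normalization or without histidine-depleted replicate 2. With 2 libraries per group, no group was large enough to look for single libraries that stand apart.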

How the results depend on the processing

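With 2 libraries per group the errors rest on few samples, and depth limits AKR1B1, which had few reads. Under the alternatives listed, the log2 fold changes of the members that were tested kept their direction; 271 values moved by less than the spread between replicates and 7 by more. Of these 7, 5 came with quantile normalization and the others were those of AKR1B1 after tryptophan depletion, 1.85 at a pseudocount of 8 and 3.55 in DESeq2. Except where the construction shows it, the cause was not tested. Leaving out a library leaves a lone sample that is assumed to vary like the others. The library replicate numbers were not stated to pair samples, and deviations of same-numbered libraries correlated by 0.12, -0.053 and -0.1 in the 3 comparisons. With the replicate block, 7311 genes were higher and 7121 lower after histidine depletion, 6501 and 6265 after tryptophan depletion, and 7299 and 7036 between the depletions, and the members' calls were as without it. The members' motif counts were the same in the 250 bases before the start. Levels per kb of coding sequence are in the report.

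A limit of 1 on the size of the log2 fold change, which by construction leaves fewer calls, gave 3002 genes higher and 2947 lower after histidine depletion, 1801 and 1873 after tryptophan depletion, and 2999 and 2864 between the depletions. Of the members, 0 were then higher and 3 lower after histidine depletion, 6 and 0 after tryptophan depletion, and 0 and 6 between the depletions. With this limit the counts higher and lower after histidine depletion were 1 and 2 of the other aldo-keto reductases, 2 and 8 of the other aldehyde dehydrogenases, 3 and 4 of the NRF2 targets, 4 and 0 of the NRF2 regulators, 1 and 6 of the carbonyl reductases, 2 and 5 of the steroid-converting enzymes, 0 and 3 of the polyol pathway, 1 and 5 of NADPH supply, 3 and 2 of the aryl hydrocarbon receptor list, and 1 and 9 of conjugation and export. After tryptophan depletion they were, in the same order of lists, 1 and 2, 3 and 5, 9 and 0, 2 and 0, 4 and 1, 1 and 2, 0 and 2, 2 and 1, 3 and 0, and 3 and 3. Between the depletions they were 0 and 2, 2 and 8, 1 and 12, 2 and 1, 1 and 4, 0 and 4, 0 and 0, 0 and 7, 0 and 3, and 1 and 9.

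Without the filter on low values, 1 member (AKR1B1) was called higher after histidine depletion, and 2 genes of the polyol pathway. A pseudocount of 8 moved the members' median after tryptophan depletion to 2.25, and a mean of at least 50 moved it to 2.46 and that between the depletions to -4.94, since AKR1B1 drops out. The median after histidine depletion was between -1.13 (without histidine-depleted replicate 2) and -0.78 (without replicate 1). Quantile normalization gave 2 other aldo-keto reductases, 3 other aldehyde dehydrogenases and 1 gene of NADPH supply higher after histidine depletion, and between the depletions 3 NRF2 regulators and 1 gene of the aryl hydrocarbon receptor list. Without the trend, the counts were 3 other aldehyde dehydrogenases and 1 gene of NADPH supply after histidine depletion and 1 of the receptor list between the depletions, and with a mean of at least 50, 2 of the receptor list after histidine depletion. DESeq2 gave 2 other aldo-keto reductases higher after tryptophan depletion, and between the depletions 0 of them and 1 of the receptor list. With single libraries left out, the other aldehyde dehydrogenases higher after histidine depletion numbered 3 (without histidine-depleted replicate 2) to 5, the genes of NADPH supply 1 (without histidine-depleted replicate 2) to 2, the polyol genes 1 to 2 (without untreated replicate 1), the other aldo-keto reductases higher after tryptophan depletion 2 (without tryptophan-depleted replicate 2) to 4, and those of the receptor list higher between the depletions 1 (without tryptophan-depleted replicate 1) to 2. Of the named genes outside the members, 65 values lost the call, 21 gained one and 1 changed sign, NQO1 after tryptophan depletion (-0.04 with quantile normalization).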
